A study of Homo sapiens with 12 samples.

Results

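Transcripts of the interleukin-6 (IL6) cytokine family, its receptor chains, the transcription factor STAT3 and the feedback inhibitor SOCS3 were followed in 4 lines descended from the human breast cancer line SKBR-3, in which ERBB2, the gene for HER2, is amplified. The 9 genes were taken by name: the ligands IL6, IL11 and LIF, the receptor chains IL6R, IL6ST, LIFR and OSMR, and STAT3 and SOCS3. Every array probe set annotated to 1 of these genes alone was used. This gave 30 probe sets, out of 41091 such single-gene probe sets, array controls left out, that read 19775 genes. IL6ST had 7 probe sets, LIFR 5, STAT3 and SOCS3 4 each, IL6R and OSMR 3 each, IL11 2, and IL6 and LIF 1 each. Where genes rather than probe sets are counted, a gene stands for the probe set whose mean over the 12 arrays is its highest.

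Cytokines of this family signal through the shared receptor chain gp130, the product of IL6ST. IL6 first binds its own receptor IL6R, which can be membrane-bound or shed, while LIF pairs gp130 with LIFR, and oncostatin M pairs it with OSMR or LIFR. The assembled receptor activates JAK kinases, which phosphorylate STAT3, and STAT3 in turn raises transcription of SOCS3, an inhibitor that binds gp130 and the JAKs and limits the signal. IL6 is also a classical target of NF-kB. The arrays measured RNA, so neither secreted cytokine nor STAT3 phosphorylation was read.

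All 4 lines share the SKBR-3 background and a sort for cells with high HER2. SKR6 is that sorted population with no further change. SKR6-Vector is SKR6 with the empty retroviral vector pQCXIP after puromycin selection. SKR6CA is SKR6 with a retrovirus for CAp65, an NF-kB subunit (relA/p65) that is always active, also selected with puromycin. SKR6LR is SKR6 taken through lapatinib, which blocks the kinases of EGFR and HER2, at concentrations rising from 0.2 to 5 µM over several months. The growth protocol adds that cells it calls SKLR were kept in 0.2 µM lapatinib, a spelling that no sample carries. The medium was RPMI 1640 with 10% serum, and RNA was taken after 48 hours. Each line had 3 biological replicates, 1 array each, and nothing says that a line was derived more than once, so p-values measure the spread between these samples, which may be technical. No line is stated to be a single clone.

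Promoters of the members differed in the short motifs they held. RefSeq (GRCh38.p14) gave windows of 250 bases upstream of the transcription start for 8 of the 9 genes, 11 windows in all, and LIF had no entry. The motifs searched on both strands were the STAT site TTCNNNGAA, the AP-1 site TGANTCA and the NF-kB consensus. The IL6 window is shown because IL6 had the largest difference between lines of the 9 genes, and its NF-kB match is in capitals. The LIFR window is shown because it held a STAT match, also in capitals, in a receptor gene whose level differed between the lines. The IL6 window lies at chr7:22726950-22727199 on the plus strand, and the LIFR window at chr5:38595406-38595655 on the minus strand. Both are written 5′ to 3′ and end at the base before the transcription start.
IL6: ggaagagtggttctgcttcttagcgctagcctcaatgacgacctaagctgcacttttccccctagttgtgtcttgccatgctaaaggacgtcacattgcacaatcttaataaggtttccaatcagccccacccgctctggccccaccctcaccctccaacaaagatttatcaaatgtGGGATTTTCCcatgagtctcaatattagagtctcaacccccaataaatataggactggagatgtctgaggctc
LIFR: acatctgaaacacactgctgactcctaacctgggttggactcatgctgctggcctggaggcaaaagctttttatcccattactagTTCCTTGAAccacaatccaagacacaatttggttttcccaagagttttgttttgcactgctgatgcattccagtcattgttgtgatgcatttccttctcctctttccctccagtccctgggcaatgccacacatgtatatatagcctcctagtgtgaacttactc
The IL6 match, GGGATTTTCC, covers the bases 73 to 64 before the start. The LIFR match, TTCCTTGAA, covers the bases 165 to 157 before it, and another LIFR window held TTCATCGAA at 182 to 174. IL11 had the AP-1 match TGAGTCA at 96 to 90, and IL6ST an NF-kB match at 53 to 44 on the strand opposite the window, which itself reads GGAGCGCCCC there. No match overlapped another, and the windows of IL6R, OSMR, STAT3 and SOCS3 and the remaining LIFR window held none. Of 35116 promoter windows of the same length, 6.57% held the STAT site, 6.57% the AP-1 site and 9.96% the NF-kB consensus. A match is a description of letters and not evidence of binding.

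The deposited values are on a log2 scale, so a difference of 1 is a 2-fold change. Array medians lay between 5.74 and 5.77, and levels below them carry no detection call. The SKR6LR arrays stood apart: their correlations with arrays of the other lines were 0.926 to 0.944. Their replicate SD, as a root mean square over all probe sets, was 0.205, against 0.105 to 0.118 in the other lines. RNA quality was read from the actin control, whose 3′ probe set exceeded its 5′ probe set by 2.32 on the array of SKR6LR replicate 3 and by 1.03 to 1.73 on the other 11 arrays. Of 8 genes listed as SKBR-3 markers, 7 lay above the array median in every line. The epithelial cadherin CDH1 had line means of 4.24 to 4.28, below the array medians, so it was not a marker of these lines.

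The lapatinib-selected line differed from its parent SKR6 in most of the 9 genes: IL6, LIF, IL6ST, LIFR, OSMR and SOCS3 were higher and IL6R was lower. With active p65, IL6R alone of the 9 was called against the empty vector, and it was higher. The vector line itself differed from SKR6, with less IL6R and more STAT3 and IL6ST. A call here is an adjusted p under 0.05 in limma, with Benjamini-Hochberg adjustment over all 54613 probe sets tested.

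In SKR6LR against SKR6, 6 of the 9 genes were called higher, 1 lower and 2 were not called. Over all genes 20.8% were called higher and 29.8% lower. That balance depends on the scaling: over all probe sets 43.2% of the calls were higher as deposited and 53.1% after cyclic loess between arrays. The median difference of the 9 genes was 1.66, against -0.06 over all genes. Of the 30 probe sets, 17 were higher and 5 lower, where 43.9% of all probe sets were called in either direction. In SKR6CA against SKR6-Vector, 1 of the 9 genes was called higher and none lower, against 10.6% and 13.8% of all genes. All 3 of the probe sets called there belonged to IL6R, and 19.3% of all probe sets were called. The median difference of the 9 genes in that comparison was 0.03, against 0.0033 over all genes.

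In SKR6-Vector against SKR6, 2 of the 9 genes were higher and 1 was lower, against 11.2% and 11.7% of all genes. There 9 of the 30 probe sets were called, against 17.2% of all. In SKR6CA against SKR6, 1 gene was higher and 1 lower, against 8.87% and 12.9% of all genes, and 8 of the 30 probe sets were called, against 16.6%. With 9 genes, 1 or 2 called in a direction is close to those shares, while the 6 higher genes in SKR6LR are a larger share than the background. The 9 genes were chosen with earlier results of these data known, so these counts describe them and are not a test of the family. SKR6 is the control of several of these comparisons, so their values are not independent of each other.

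**Figure D1:**
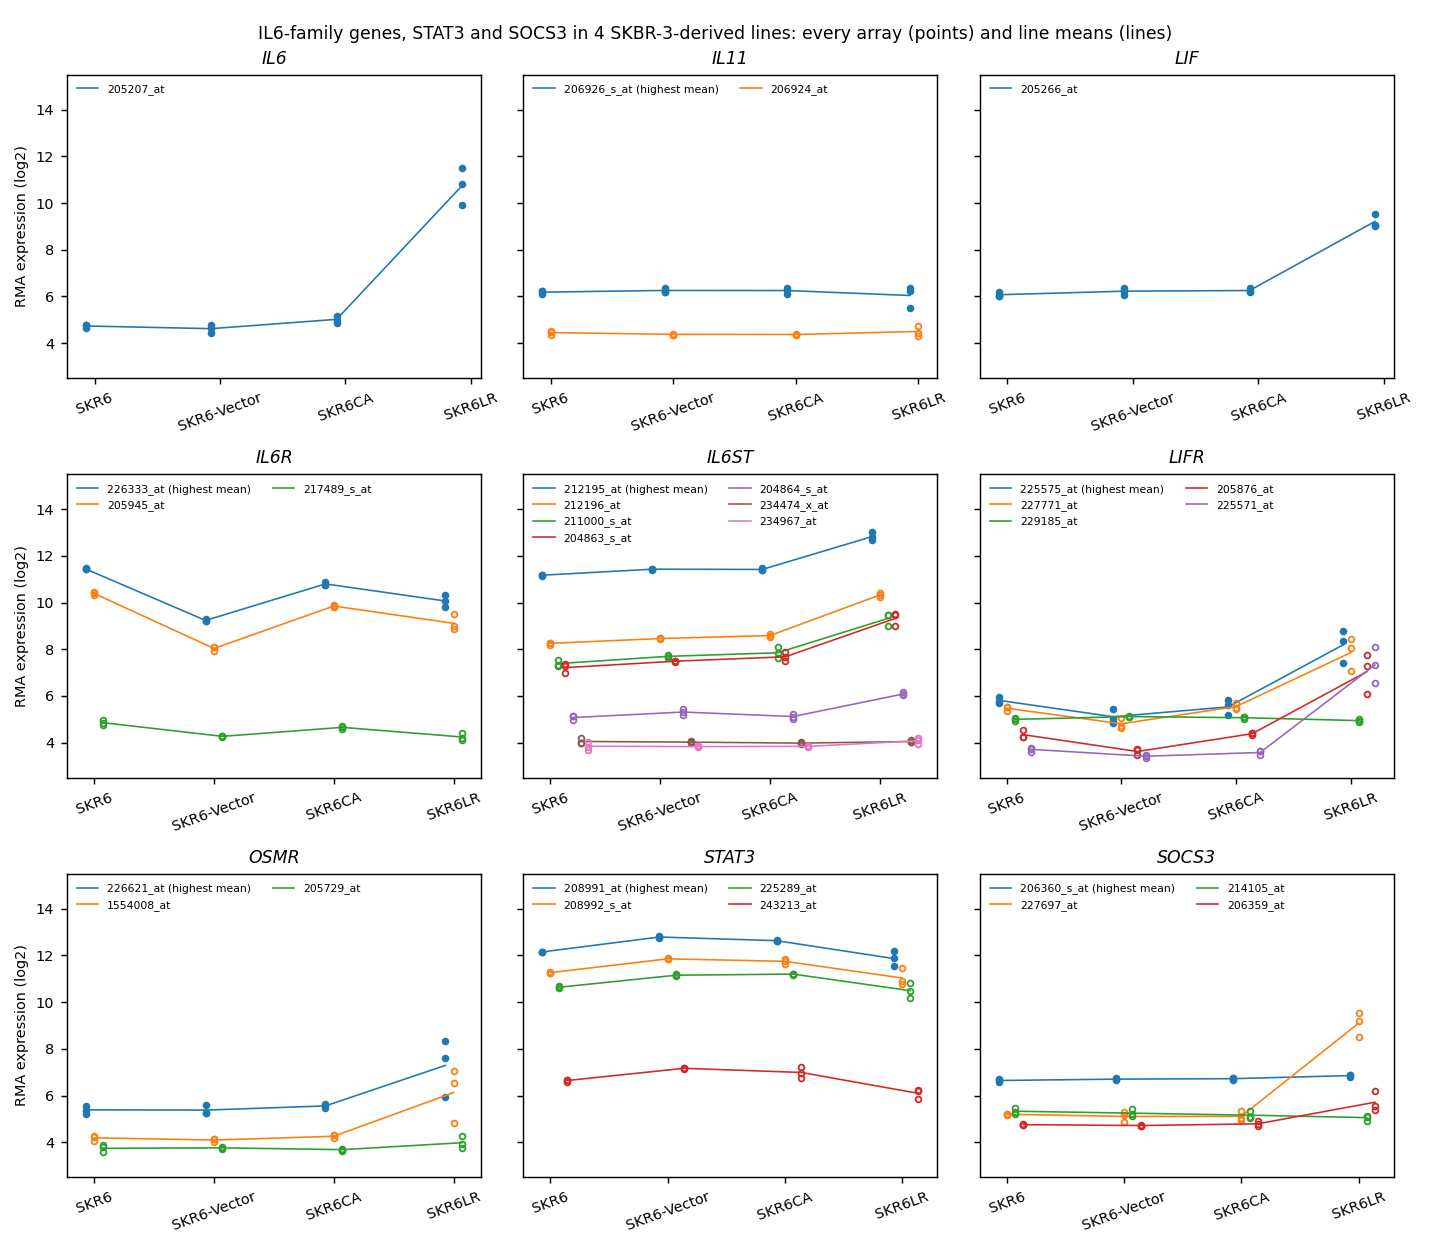
Level of each of the 9 genes on every array, on the log2 scale, with 1 panel per gene and the 4 lines along the horizontal axis. Each point is 1 array, lines join the means of the 3 replicates for each probe set, and filled points mark the probe set with the highest mean. IL6 and LIF are high in SKR6LR, IL6R is lowest in SKR6-Vector, and the SOCS3 probe sets separate in SKR6LR.

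IL6, the founding ligand of the family, was near the bottom of the scale in 3 of the lines and high in SKR6LR. The SKR6 arrays read 4.78, 4.77 and 4.66, the SKR6-Vector arrays 4.77, 4.64 and 4.45, and the SKR6CA arrays 5.17, 5.00 and 4.88, all below their array medians. The SKR6LR arrays read 9.91, 11.49 and 10.83. Each SKR6LR array was thus far above every other array, and replicate 1 was the lowest of the 3. The mean was 10.74 ± 0.79 (SD, n = 3) in SKR6LR and 4.73 ± 0.07 (SD, n = 3) in SKR6. The difference was 6.01 (SE 0.275), a 64.3-fold ratio of the array values, with an adjusted p of 8.86e-10 in limma. As in any bulk sample, more RNA per cell and more cells that express the gene cannot be told apart.

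With active p65, IL6 was 0.40 higher than with the empty vector (SE 0.275), and the 3 SKR6CA arrays lay above the 3 SKR6-Vector arrays without overlap. That difference was not called (limma adjusted p = 0.405). Its SE pools the spread of all 4 lines, not that of the compared arrays alone. The IL6 SD was 0.79 in SKR6LR, 0.16 in SKR6-Vector and 0.15 in SKR6CA. When only the 6 arrays compared were fitted, the difference was called (limma adjusted p = 0.0204). It was not called with 1 variance weight per line (limma adjusted p = 0.120) or in the other settings tried, over which the adjusted p reached 0.639.

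LIF, a ligand of the LIFR and gp130 pair, showed the same contrast between SKR6LR and the rest. It read 6.01, 6.19 and 6.02 in SKR6, 6.06, 6.37 and 6.24 in SKR6-Vector, and 6.35, 6.24 and 6.17 in SKR6CA. These 3 lines overlapped, while the SKR6LR arrays at 9.01, 9.55 and 9.08 lay above all of them. SKR6LR exceeded SKR6 by 3.14 (SE 0.129, 8.81-fold), with a limma adjusted p of 3.02e-10. SKR6CA and SKR6-Vector differed by 0.03 (SE 0.129, limma adjusted p = 0.932).

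IL11, a ligand that uses its own receptor IL11RA with gp130, was called in none of the comparisons. Its better-read probe set 206926_s_at gave 6.23, 6.09 and 6.22 in SKR6 and 6.38, 6.21 and 6.18 in SKR6-Vector. It gave 6.38, 6.12 and 6.26 in SKR6CA and 6.36, 6.25 and 5.51 in SKR6LR. All 4 lines overlapped, and SKR6LR replicate 3 was the lowest array. SKR6LR was below SKR6 by 0.14 on this probe set (a difference of -0.14, SE 0.171) and above it by 0.05 (SE 0.0919) on the other, neither of them called. The 2 probe sets ran against each other over the 12 arrays (Pearson r = -0.81, a description over arrays that share 4 lines).

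IL6R, the specific IL6 receptor, was the only one of the 9 genes that differed in all 4 of these comparisons, and its order was its own. On probe set 226333_at it read 11.42, 11.42 and 11.46 in SKR6, and 9.19, 9.21 and 9.30 in SKR6-Vector. It read 10.73, 10.90 and 10.76 in SKR6CA and 9.79, 10.34 and 10.06 in SKR6LR. No line overlapped another: SKR6 was highest, then SKR6CA, SKR6LR and SKR6-Vector. Each step down this order was called in limma, with adjusted p values of 0.00133, 9.66e-05 and 2.88e-05.

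The vector line thus held less IL6R than its parent, and the line with active p65 stood between them. SKR6-Vector was below SKR6 by 2.20 (a difference of -2.20, SE 0.109, 4.60-fold lower, limma adjusted p = 2.30e-08). SKR6CA was above SKR6-Vector by 1.56 (SE 0.109, 2.96-fold, limma adjusted p = 5.43e-07) and differed from SKR6 by -0.64 (SE 0.109, limma adjusted p = 0.00133). The direction for active p65 therefore depended on the control line. SKR6LR differed from SKR6 by -1.37 (SE 0.109, 2.58-fold lower, limma adjusted p = 2.31e-07).

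All 3 IL6R probe sets shared these directions. On 205945_at the differences were 1.82 for SKR6CA against SKR6-Vector, -2.35 for SKR6-Vector against SKR6 and -1.28 for SKR6LR against SKR6, all called. On 217489_s_at, which read below the array median, they were 0.38, -0.59 and -0.61, also called. That probe set did not separate SKR6LR from SKR6-Vector (limma adjusted p = 0.843), and its difference of -0.20 between SKR6CA and SKR6 was not called.

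IL6ST, the gene for gp130, was well read in every line and higher in SKR6LR. On 212195_at it gave 11.19, 11.17 and 11.15 in SKR6, 11.45, 11.38 and 11.45 in SKR6-Vector, 11.40, 11.39 and 11.46 in SKR6CA, and 13.01, 12.66 and 12.80 in SKR6LR. SKR6LR lay above the rest without overlap, SKR6 lay below the rest, and the transduced lines overlapped. SKR6LR exceeded SKR6 by 1.66 (SE 0.0793, 3.15-fold, limma adjusted p = 1.41e-09). The other probe sets of the gene agreed in direction with few exceptions: 6 of the 7 were called higher, by 0.23 to 2.11, and 234474_x_at, at -0.0018, was not.

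Both transduced lines held slightly more IL6ST than SKR6. The difference for SKR6-Vector was 0.26 (SE 0.0793, limma adjusted p = 0.0406), and this call was lost when any 1 of the 6 arrays compared was left out (limma adjusted p 0.0715 to 0.117). Among the 7 probe sets, 2 were called higher in SKR6-Vector. In SKR6CA against SKR6 the difference on 212195_at was 0.25 (limma adjusted p = 0.0511), not called. It was called in 7 of 12 other settings (limma adjusted p 0.00802 to 0.0594 over the 12) and in none that left out an array (0.0913 to 0.157), while 3 other probe sets were called higher, by 0.33 to 0.47. SKR6CA and SKR6-Vector differed by -0.01 (SE 0.0793, limma adjusted p = 0.957).

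LIFR, the chain that binds LIF, was higher in SKR6LR on 4 of its 5 probe sets. On 225575_at it read 5.70, 5.80 and 5.94 in SKR6, 4.85, 5.46 and 5.02 in SKR6-Vector, 5.19, 5.60 and 5.81 in SKR6CA, and 7.39, 8.78 and 8.37 in SKR6LR. The SKR6LR arrays lay above all others, and the SKR6-Vector arrays below those of SKR6. SKR6LR exceeded SKR6 by 2.37 (SE 0.283, 5.16-fold, limma adjusted p = 1.18e-05). The 4 probe sets called higher gave 2.37 to 3.61. The fifth, 229185_at, had line means of 4.95 to 5.12, with a difference of -0.05 that was not called.

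In SKR6-Vector, LIFR was 0.70 below SKR6 (a difference of -0.70, SE 0.283), with no overlap between arrays and no call (limma adjusted p = 0.120). The call was gained when only the compared arrays were fitted (limma adjusted p = 0.0125). Active p65 gave 0.42 against the vector on 225575_at (limma adjusted p = 0.390) and 0.74 on 227771_at (limma adjusted p = 0.0600), neither called.

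OSMR, the oncostatin M receptor chain, was higher in SKR6LR with a wide spread. On 226621_at it read 5.21, 5.57 and 5.38 in SKR6, 5.61, 5.25 and 5.27 in SKR6-Vector, and 5.62, 5.57 and 5.47 in SKR6CA. The SKR6LR arrays read 5.92, 8.34 and 7.60, so replicate 1 was only slightly above the other lines. Against SKR6 the difference was 1.90 (SE 0.418, 3.73-fold, limma adjusted p = 0.0021). It was 2.58 without SKR6LR replicate 1 and 1.37 without SKR6LR replicate 2, and was called in both cases. Probe set 1554008_at gave 1.94 (limma adjusted p = 0.000962), and 205729_at, near the bottom of the scale, gave 0.24 (limma adjusted p = 0.125). OSMR differed by 0.18 (SE 0.418, limma adjusted p = 0.856) between SKR6CA and SKR6-Vector.

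**Figure D2:**
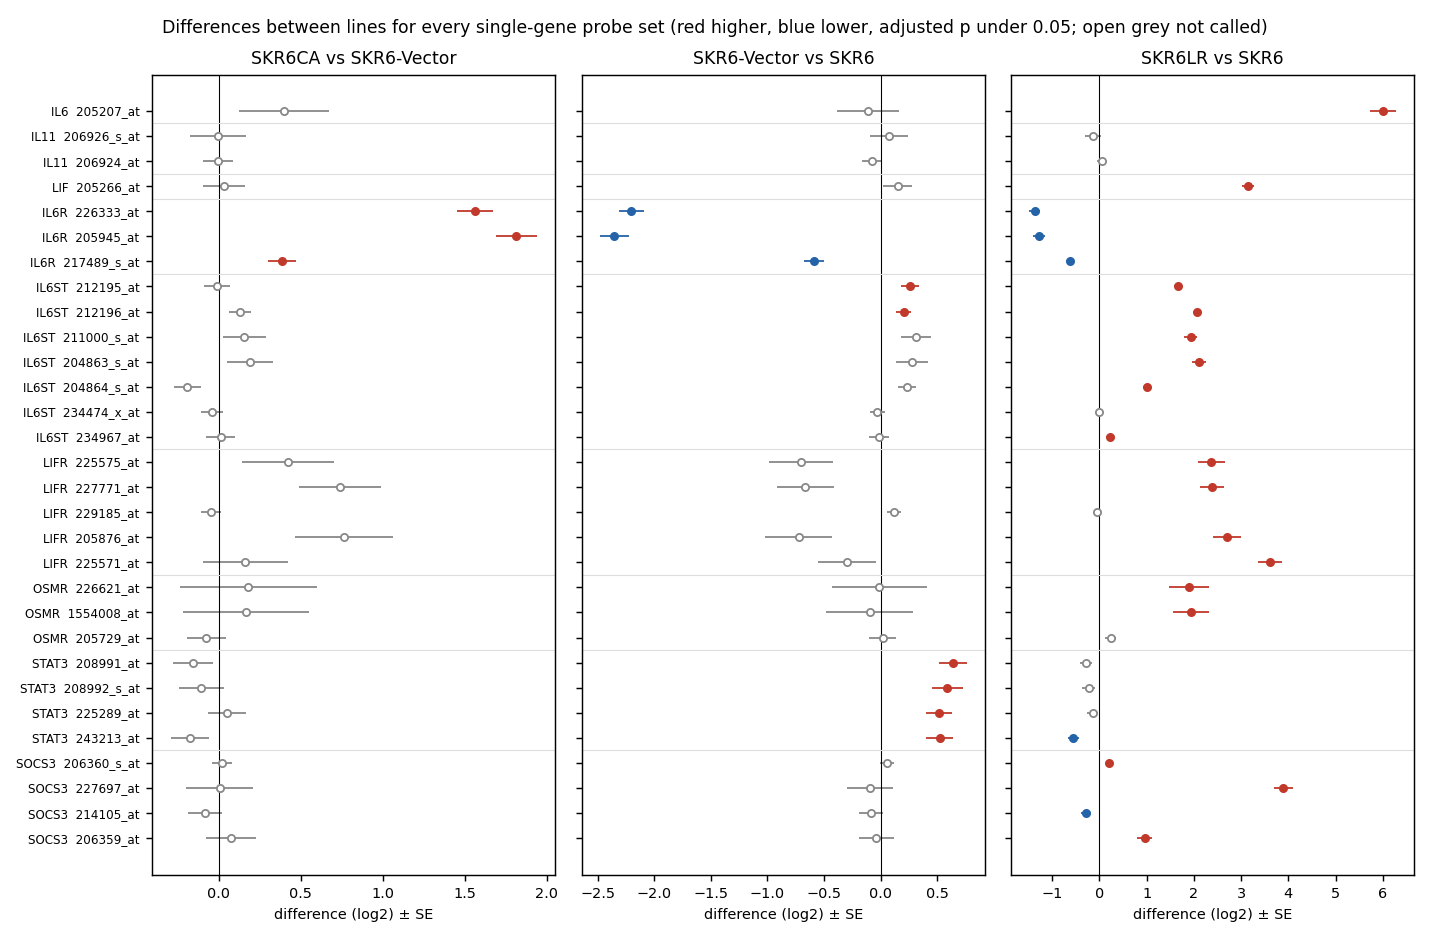
Difference on the log2 scale, with its limma SE, for each of the 30 probe sets in 3 comparisons: SKR6CA against SKR6-Vector, SKR6-Vector against SKR6 and SKR6LR against SKR6. Red marks are called higher, blue lower and open grey not called, and the horizontal scales of the 3 panels differ. IL6R is the only gene called with active p65, at 1.56 on its highest probe set, and IL6 has the largest difference of SKR6LR, at 6.01.

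STAT3 itself read above the array median in every line, and its line means spanned 0.92. On 208991_at it gave 12.15, 12.14 and 12.15 in SKR6, 12.79, 12.74 and 12.82 in SKR6-Vector, 12.61, 12.63 and 12.65 in SKR6CA, and 11.52, 12.20 and 11.87 in SKR6LR. The transduced lines were above SKR6 without overlap, and SKR6LR spanned the SKR6 values. SKR6-Vector exceeded SKR6 by 0.64 (SE 0.122, 1.56-fold, limma adjusted p = 0.00253). All 4 STAT3 probe sets were called higher there, by 0.52 to 0.64.

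In SKR6CA against SKR6 the STAT3 difference was 0.48 (SE 0.122, limma adjusted p = 0.0161), and 3 of the 4 probe sets were called. This call was lost without SKR6 replicate 1 (limma adjusted p = 0.0503) or without SKR6CA replicate 3 (limma adjusted p = 0.0549). Between SKR6CA and SKR6-Vector the difference was -0.16 (SE 0.122, limma adjusted p = 0.474). In SKR6LR against SKR6 it was -0.29 (SE 0.122, limma adjusted p = 0.0777), and it was -0.45 and called without SKR6LR replicate 2 (limma adjusted p = 0.000935). Only 243213_at was called lower there, at -0.55 (limma adjusted p = 0.00177). Against the transduced lines STAT3 was lower in SKR6LR: the difference on 208991_at was -0.92 from SKR6-Vector (limma adjusted p = 3.10e-05) and -0.77 from SKR6CA (limma adjusted p = 0.000174). STAT3 RNA was thus not higher in the line where IL6, LIF and 3 receptor chains were higher.

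SOCS3, the STAT3-induced inhibitor, depended on the probe set. On 227697_at it read 5.22, 5.19 and 5.18 in SKR6, 5.15, 4.85 and 5.31 in SKR6-Vector, 4.96, 5.34 and 5.03 in SKR6CA, and 8.52, 9.55 and 9.20 in SKR6LR. SKR6LR was well clear of the others, which overlapped, and exceeded SKR6 by 3.89 (SE 0.204, 14.9-fold, limma adjusted p = 3.56e-09). On 206360_s_at, which has the highest mean and stands for the gene in the counts, SKR6LR read 6.88, 6.86 and 6.81 and SKR6 6.57, 6.69 and 6.67. That difference was 0.21 (SE 0.0621, limma adjusted p = 0.0136), and the call was lost without SKR6 replicate 1 (limma adjusted p = 0.0661). Probe set 206359_at rose by 0.96 (limma adjusted p = 0.000158) and 214105_at fell by 0.27 (limma adjusted p = 0.0494). The size of the SOCS3 rise therefore ranged from 0.21 to 3.89 over the 3 probe sets that rose. None of the 4 was called with active p65 against the vector, and 227697_at gave 0.0034 (limma adjusted p = 0.994).

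The order of the lines was the same in its upper step for most members. For IL6, LIF, IL6ST, LIFR and OSMR, SKR6LR was highest on the representative probe set and differed from the next line, and no lower neighbours differed from each other in limma. The smallest adjusted p among those lower steps was 0.0511, between SKR6CA and SKR6 for IL6ST. STAT3 ran from SKR6-Vector through SKR6CA and SKR6 to SKR6LR, and only the step from SKR6CA to SKR6 was called. For IL11 no neighbouring lines differed. Probe sets of 1 gene mostly ran together over the 12 arrays, with Pearson r of 0.87 to 0.99 in IL6R and 0.89 to 0.98 in STAT3. In IL6ST they ran from 0.022 to 0.996, in LIFR from -0.62 to 0.995 and in SOCS3 from -0.54 to 0.95.

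The spread inside SKR6LR had a common form. Of the 14 probe sets that were called higher by at least 1 in SKR6LR, 9 were lowest in replicate 1 and highest in replicate 2. The other 16 probe sets included 11 with that arrangement, among them all 4 of STAT3 and all 3 of IL6R, which were not raised. IL6ST was the exception among the raised genes: 4 of its 5 strongly raised probe sets were highest in replicate 1.

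The effect of lapatinib selection and that of active p65, each against its own control, were compared directly. The difference between the effects was called for 6 of the 9 genes and for 18 of the 30 probe sets, where 36.2% of all probe sets were called. It was positive for IL6, LIF, IL6ST, LIFR and OSMR and negative for IL6R. For IL6R the effects had opposite signs, -1.37 in SKR6LR against SKR6 and 1.56 in SKR6CA against SKR6-Vector. Against SKR6, however, SKR6CA differed by -0.64, the same sign as SKR6LR, so the opposition depended on the vector control. On SOCS3 probe set 227697_at the difference of effects was 3.89 (SE 0.289, limma adjusted p = 2.00e-07).

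Other genes of the pathway were taken from 7 lists, in which 59 of 66 genes were measured. In SKR6LR against SKR6, 29 of the 59 were called higher and 14 lower, where 20.8% and 29.8% of all genes were. In SKR6CA against SKR6-Vector 15 were higher and 4 lower, where 10.6% and 13.8% of all genes were. The lists were chosen with results of these data known, so their counts describe these genes and are not a test of the pathway.

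Among 5 other ligands, only EBI3 rose in SKR6LR and CTF1 fell. EBI3, a subunit shared by IL27 and IL35, rose by 2.53 (SE 0.101, limma adjusted p = 2.23e-10), and CTF1, cardiotrophin 1, fell by 0.39. None of the 5 was called with active p65. Of 4 other receptor chains, IL27RA rose by 0.43 in SKR6LR, while IL11RA, the IL11 receptor, fell by 0.60 and IL31RA fell by 0.22. In SKR6LR against SKR6, 20.8% of all genes were called higher and 29.8% lower. IL31RA, with line means of 3.97 in SKR6 and 3.75 in SKR6LR, was near the bottom of the scale. IL27RA went from 5.61, below the array medians, to 6.04, above them. None of these receptor chains was called with active p65. Of the proteases that shed membrane IL6R, ADAM17 was higher in SKR6LR by 1.15 (SE 0.0603, limma adjusted p = 3.48e-09) and ADAM10 by 0.83. Their differences with active p65, 0.11 and -0.20, were not called.

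All 7 measured JAKs and signal transducers were called in SKR6LR, 4 higher and 3 lower, where 20.8% of all genes were higher and 29.8% lower. GAB1, an adaptor between receptors and the SHP2 and PI3K pathways, rose by 2.55 (SE 0.104, limma adjusted p = 2.87e-10). The kinases JAK2 and JAK1 rose by 1.12 and 0.69, and STAT5A rose by 1.02. With active p65 against the vector, GAB1 fell by 0.70 and JAK2 fell by 0.42, and no gene of this list rose. GAB1 had line means of 7.54 in SKR6, 8.36 in SKR6-Vector and 7.66 in SKR6CA, and JAK2 had 6.16, 6.94 and 6.52. Both falls were thus measured against a vector line above SKR6, and SKR6CA was not below SKR6. Among 9 inhibitors, 6 were higher and 3 lower in SKR6LR, beside the same shares of all genes. SOCS2 rose by 2.80 (SE 0.0873, limma adjusted p = 1.96e-11) and SOCS5 by 1.31, while CISH, another SOCS-family inhibitor, fell by 2.11 and PIAS3, an inhibitor of STAT3 DNA binding, fell by 1.41. With active p65 against the vector SOCS2 rose by 0.78, the phosphatases PTPN1 and PTPN2 by 0.44 and 0.33, and SOCS5 fell by 0.28. For PTPN2 and SOCS5 the vector line itself differed from SKR6, by -0.28 and 0.24, both called. SKR6CA differed from SKR6 by 0.046 for PTPN2 and -0.046 for SOCS5, neither called. SOCS2 and PTPN1 were also called higher in SKR6CA against SKR6, by 1.64 and 0.38.

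Genes known as STAT3 targets were higher in both comparisons more often than lower. In SKR6LR 12 of 20 rose and 3 fell, where 20.8% and 29.8% of all genes did. The median difference was 0.58, against -0.06 over all genes. The chemokine CCL2 rose by 4.96 (SE 0.290, limma adjusted p = 1.06e-08), the methyltransferase NNMT by 3.57, and the transcription factors CEBPD and FOS by 2.97 and 2.57. The genes that fell were BIRC5, the mitotic survivin gene, by 1.70, MUC1 by 0.80 and TNFRSF1A by 0.24. With active p65, 7 of the 20 rose and none fell, where 10.6% and 13.8% of all genes did. The median was 0.24, against 0.0033 over all genes. There MUC1, a mucin, rose by 2.12 (SE 0.253, limma adjusted p = 5.74e-05), CCL2 by 2.07, ICAM1 by 1.32 and CEBPD by 0.97. CCL2 and ICAM1 are also known NF-kB targets. MUC1 moved in opposite directions in the comparisons, while CCL2 and CEBPD rose in both.

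Of the acute-phase genes, which IL6 induces in liver, only 4 or 5 of the 12 measured lay above the array median in any line. With active p65, 5 of the 12 were higher and 1 was lower, against 10.6% and 13.8% of all genes. ORM1 rose by 2.59 (SE 0.321, limma adjusted p = 7.88e-05), the fibrinogen chains FGG and FGB by 2.56 and 1.32, and SERPINA3 by 1.87, while SERPINA1 fell by 1.16. In SKR6LR 3 of the 12 were higher and 2 were lower, near the 20.8% and 29.8% of all genes. LBP, a lipopolysaccharide-binding protein, rose by 1.47 and SERPINA3 by 1.06, while ORM1 fell by 1.96 and FGG by 0.51. ORM1 had line means of 8.18 in SKR6, 6.27 in SKR6-Vector, 8.86 in SKR6CA and 6.22 in SKR6LR. Its rise with active p65 was thus measured against a vector line with a low level. SERPINA1 had line means of 5.26 in SKR6, 6.65 in SKR6-Vector and 5.49 in SKR6CA, so its fall was measured against a vector line with a high level. The part of IL6 in these acute-phase differences was not tested.

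**Figure D3:**
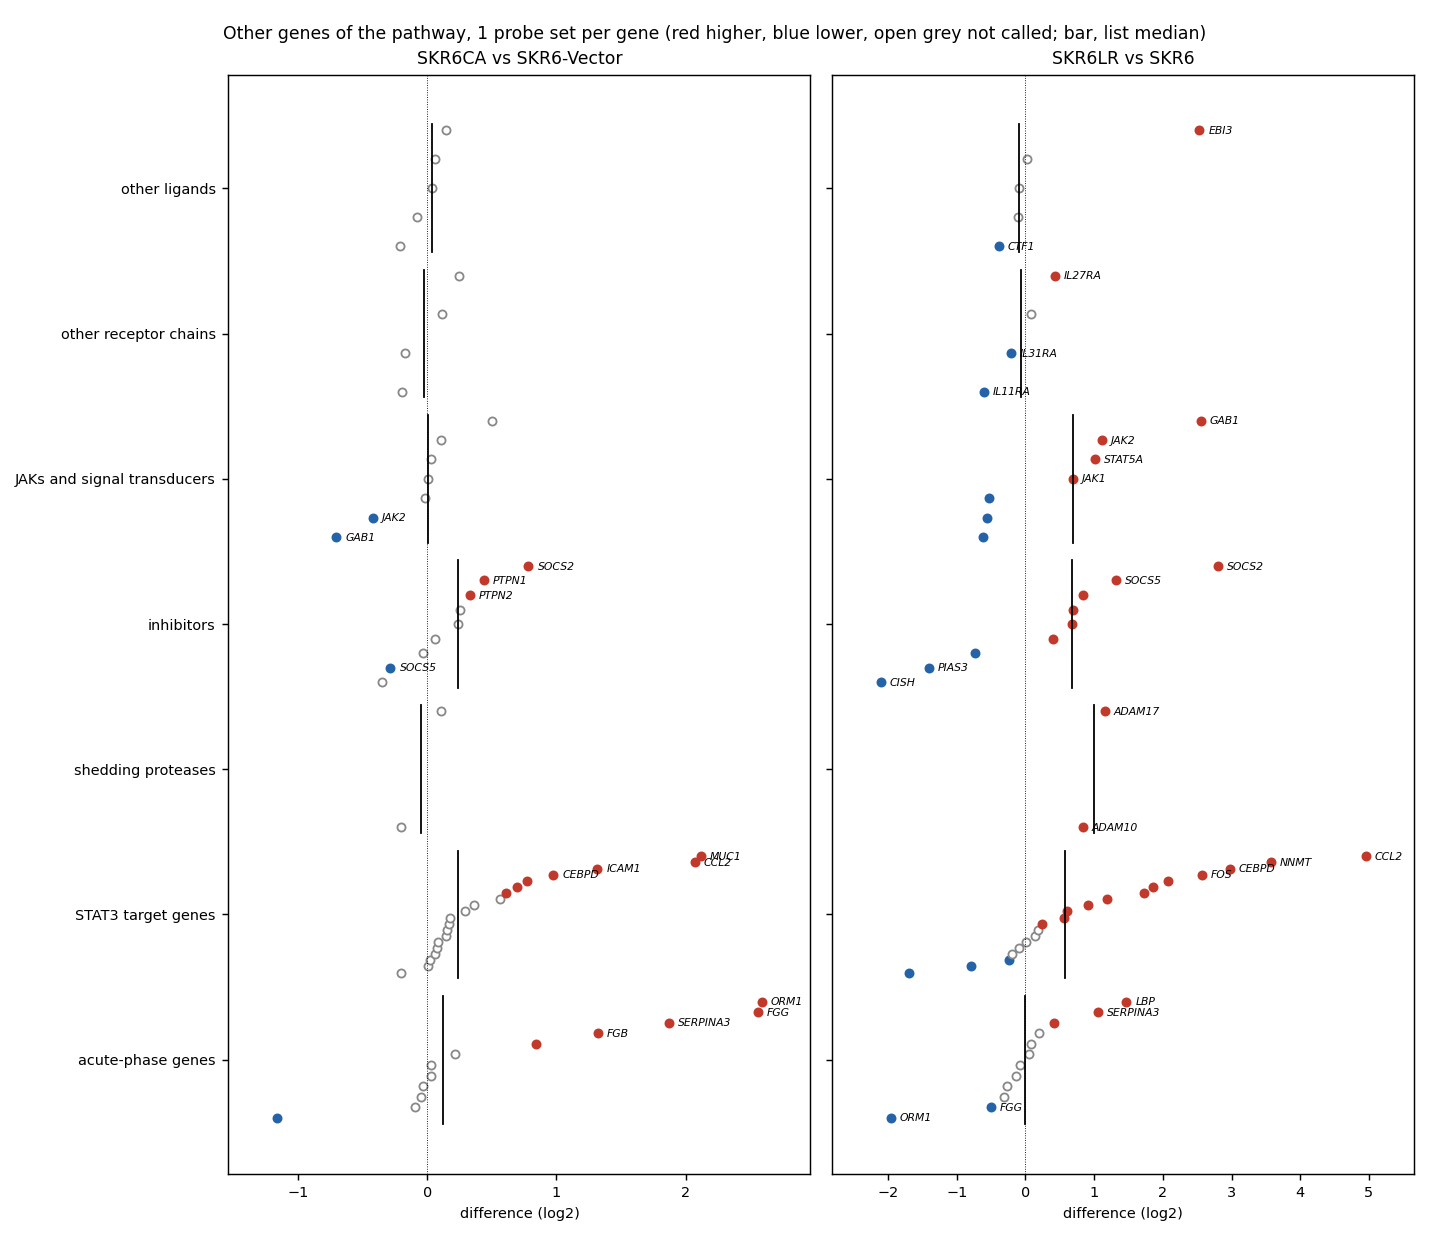
Difference on the log2 scale for the 59 measured genes of 7 pathway lists, 1 probe set per gene, in SKR6CA against SKR6-Vector and in SKR6LR against SKR6. Each point is a gene, the bar is the median of its list, and the genes named in the text carry labels. The STAT3 target list has a median of 0.24 with active p65 and 0.58 in SKR6LR, and CCL2 is the highest point of SKR6LR at 4.96.

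Single markers of other cell types also moved in SKR6LR. Of 8 fibroblast markers 2 lay above the array median in SKR6LR and 1 in the other lines, and their mean level was 5.81 to 5.95 per array, against 5.18 to 5.32 elsewhere. Of 7 blood cell markers 2 lay above it in SKR6LR and 1 elsewhere, with mean levels of 5.34 to 5.37 against 4.71 to 4.92. Of 5 endothelial markers 3 lay above it in SKR6LR and 2 elsewhere, with mean levels of 5.95 to 6.03 against 5.11 to 5.82. Most fibroblast and blood cell markers were not called against SKR6, while of the endothelial markers 2 were higher, 1 was lower and 2 were not called. Over all genes 20.8% were called higher and 29.8% lower there, so 2 higher markers of 8 or of 7 are close to that share. Of the fibroblast markers COL3A1, a collagen gene, was higher by 4.92 and FAP by 0.31, and the other 6, among them COL1A1 at -0.24 and DCN at -0.04, were not called. The list's median difference was -0.02. Of the blood cell markers CSF1R was higher by 2.32 and CD14 by 1.72, and the other 5, the pan-leukocyte gene PTPRC among them, were not called. Of the endothelial markers CDH5 was higher by 3.83 and VWF by 0.62, TEK fell by 0.22, and PECAM1 and KDR were not called. CDH5 was also 2.96 higher in SKR6-Vector than in SKR6. ERBB2 fell by 1.38 in SKR6LR. The part of these markers in the IL6-family differences was not tested. Without SKR6LR replicate 3, the array with the highest actin difference, 7 of the 9 genes were still called against SKR6.

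Genes whose levels ran most like a member over the 12 arrays were sought among 4005 genes whose line means differed by at least 1, as was required of the member. These correlations largely reflect the gap between SKR6LR and the other lines and are descriptions. IL6 ran closest to LYN, a SRC-family kinase (Pearson r = 0.999), and PARP14 (0.998), and LIF to SIAH2, a ubiquitin ligase, and LINC01029 (both 0.998). IL6ST ran closest to TEAD1, a transcription factor of the Hippo pathway, and PPFIA1 (both 0.996). LIFR ran closest to BCAR3 (0.991) and CTSL (0.989), and OSMR to PDZK1IP1 (0.992) and MSC-AS1 (0.989). IL6R, with its different order of lines, ran closest to CD99 (0.972) and NCR3LG1 (0.971). IL11, STAT3 and SOCS3, on their representative probe sets, did not reach the range of 1.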

How the data were processed

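Total RNA from 12 cultures was labelled with biotin from a T7 oligo-dT primer, per the labels' protocols, and hybridised to arrays of 54675 probe sets. The deposited values are log2 values made by the authors with RMA, which the submitters' processing notes list beside limma, with no version. RMA sets each level relative to the other arrays and compresses differences near background, and the number of arrays limits the precision. The raw scans were not analysed here. Gene names came from the 2016 annotation of the platform, brought up to date through gene IDs (RefSeq, GRCh38.p14): 41097 had 1 gene (41091 of them not array controls), of which 41043 matched by gene ID, 1801 had several and 11777 were unnamed here. After 62 control probe sets were left out, 54613 entered a limma 3.58.1 fit (R 4.3.3), 1 model with a mean per line over all 12 arrays and no filter, with Benjamini-Hochberg adjustment. The model was tested on simulated data. The members and lists were chosen with earlier results of these data known. Named genes were the 9 members, up to 4 called genes of each list with the largest differences per main comparison, and the 2 genes most like each member; other names were chosen after their values were seen. Alternatives were other scalings, filters, variance models, probe set rules and thresholds, the replicate block, and leaving out each array. For the pathway lists, they were added after the data were seen. Same-numbered replicates did not deviate together, so the numbers were not used as pairs.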

Additional observations from a re-analysis of the deposited data

Results flagged for a closer look

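For 6 of the 9 genes the effect of lapatinib selection (SKR6LR minus SKR6) differed from the effect of active p65 (SKR6CA minus SKR6-Vector) when the difference of effects was tested in limma, with adjustment over all probe sets. Of the 30 member probe sets 18 were called, where 36.2% of all probe sets were, and the share over all genes was not computed. The difference of effects was 5.61 for IL6 (adjusted p = 1.01e-07), 3.11 for LIF (adjusted p = 1.90e-08), 1.67 for IL6ST (adjusted p = 7.51e-08) and 1.94 for LIFR (adjusted p = 0.00166). For IL6R it was -2.93 (adjusted p = 6.75e-09), although SKR6CA differed from SKR6 itself by -0.64, the same sign as SKR6LR. For OSMR it was 1.72 (adjusted p = 0.0370), and this call was lost in limma when any 1 array other than SKR6LR replicate 1 was left out, with adjusted p values of 0.0511 to 0.0847. Lines of 3 arrays were not tested for single outlying arrays.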

How the results depend on the processing

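Across the settings other than leave-one-out, 95 of 108 counts of members called stayed within 1.5 times the reported count, and of 531 gene differences 491 kept their direction and their side of the threshold. When each array was left out in turn, these were 66 of 72 counts and 290 of 324 differences. In SKR6LR against SKR6 the count of genes stayed between 6 and 8 throughout. The counts that moved were these. Fitting only the compared arrays gave 2 genes and 6 probe sets for SKR6CA against SKR6-Vector, 14 probe sets for SKR6-Vector against SKR6 and 4 genes for SKR6CA against SKR6. Group weights gave 5 probe sets for SKR6CA against SKR6-Vector and 14 for SKR6-Vector against SKR6. An adjusted p under 0.01 gave 1 gene and 3 probe sets for SKR6CA against SKR6. A difference of at least 1 gave 1 gene and 2 probe sets for SKR6-Vector against SKR6, and 0 genes and 0 probe sets for SKR6CA against SKR6, where 2 and 8 were called by limma without that minimum. Without _x_at or _s_at probe sets, 5 probe sets were called for SKR6CA against SKR6. Leaving out 1 array gave 1 to 2 genes and 4 to 9 probe sets in that comparison. The thresholds and the probe set rule change the counts by construction. For the other moves the cause was not tested.

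No called difference changed sign. Among those not called, cyclic loess turned OSMR in SKR6-Vector against SKR6 to 0.0101 and the STAT3 difference of effects to 0.0368. Without _x_at or _s_at probe sets IL11 became 0.0494 in SKR6LR against SKR6, -0.0760 in SKR6-Vector and -0.0818 in SKR6CA against SKR6, and 0.0552 for the difference of effects, and SOCS3 became -0.0932 and -0.0898 in SKR6-Vector and SKR6CA against SKR6. With the mean of probe sets these were -0.00111 and -0.00612 for IL11, -0.0390 and -0.0364 for SOCS3, and IL6ST was 0.0340 in SKR6CA against SKR6-Vector. Leaving out 1 array gave differences of -0.130 to 0.0785 for OSMR in SKR6-Vector against SKR6, -0.304 to 0.122 for IL11 in SKR6LR against SKR6, and -0.300 to 0.126 for IL11 and -0.295 to 0.0405 for STAT3 in the difference of effects. In SKR6CA against SKR6-Vector it gave -0.0692 to 0.0644 for IL11, -0.0536 to 0.102 for LIF, -0.0344 to 0.00326 for IL6ST and -0.00737 to 0.0456 for SOCS3. In SKR6LR against SKR6, SOCS3 rose by 3.89 without _s_at probe sets and by 1.20 with the mean of probe sets. STAT3 was called at -0.30 with the mean of probe sets. IL6ST in SKR6CA against SKR6 was called with cyclic loess, trend and robust fitting, group weights, only the compared arrays, the filter, 1 probe set per gene and the mean of probe sets.

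With a replicate block, 7 genes and 20 probe sets were called in SKR6LR against SKR6, and LIFR was called in SKR6-Vector against SKR6 (limma adjusted p = 0.0334). Deviations of same-numbered replicates correlated at -0.0952 to 0.0755 over 18 pairs, so the numbers were not taken as pairs. Over all probe sets, a difference of at least 1 left 6687 calls in SKR6LR against SKR6 in place of 24001 and 1162 in SKR6CA against SKR6-Vector in place of 10566. An adjusted p under 0.01 left 6935 in the latter, and group weights gave 14344 in place of 9415 in SKR6-Vector against SKR6. Cyclic loess moved the share of calls that were positive from 44.4% to 54.7% for the difference of effects and from 43.2% to 53.1% for SKR6LR against SKR6. For SKR6-Vector against SKR6 it went from 48.1% to 55.4%. Of the pathway genes, 8 were called with active p65 and 21 in SKR6LR when a difference of at least 1 was required. With 3 arrays a line, the number of arrays limits the precision.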
